A study of Homo sapiens with 6 samples.

Results

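The 31 genes described here were chosen by name: 22 code for glucose transporters and for enzymes and regulators of glycolysis and its lactate and pyruvate branch, and 9 are textbook targets of the hypoxia response. The count table holds 53712 gene rows, and all 31 symbols are among them. All 31 also passed the filter on low counts and so were among the 16873 genes tested, although CA9 and ANKRD37 did so with few reads.

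The RNA came from H9 cells, an established human embryonic stem cell line, grown in PXGL, a medium used to hold human pluripotent cells in the naive state. Both groups received 25 nM of an oligonucleotide with a lipid reagent and were harvested unsorted 48 h later. Both also had 0.7 µM trans-ISRIB, an inhibitor of the integrated stress response, 5 µM emricasan, a caspase inhibitor, and 10 µM Y-27632, an inhibitor of ROCK, in the medium for the first 24 h. In the ASO-L1 group the oligonucleotide was antisense to LINE-1, the retrotransposon family that is still active in the human genome, and in the SO-L1 group, the control, it was of the sense orientation. There were 3 poly(A) RNA-seq libraries per group, numbered 1 to 3 in both, from 1 cell line. The labels do not say that libraries of a group came from separate cultures, so p-values measure the spread between these libraries, which may be technical, and they do not give the oxygen level of the culture. The level of LINE-1 RNA was not analysed here.

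Glycolysis splits glucose into pyruvate in the cytosol and yields ATP without oxygen. Pluripotent stem cells are known for a high glycolytic flux, and primed cells are thought to depend on it more than naive cells. When oxygen is low, HIF-1α and HIF-2α escape hydroxylation by the EGLN enzymes and destruction through VHL, and pair with ARNT. Between them they raise the transcription of most glycolytic enzymes together with genes for angiogenesis, mitophagy and collagen hydroxylation, and not every target answers to both. Many enzymes of the pathway exist as several isoenzymes from separate genes, and the 31 genes include both or all of the main ones for several steps.

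The libraries held 23330875 to 31164287 counts in the ASO-L1 group and 24027869 to 30956692 in the SO-L1 group. The 31 genes together took 1.33% to 1.49% of the counts of an ASO-L1 library and 1.46% to 1.68% of those of a SO-L1 library. Library 2 stood apart in both groups. By chi-square per degree of freedom over genes, ASO-L1 library 2 differed from libraries 1 and 3 of its group by 17.0 and 22.1, against 1.97 between those, and SO-L1 library 2 by 10.3 and 11.2, against 5.90. On the first principal component ASO-L1 libraries 1 to 3 lay at -22.3, -58.9 and -18.9, and SO-L1 libraries 1 to 3 at 38.3, 21.3 and 40.5. Some markers of cell states differed too. Of 9 tested naive markers 2 were called higher and 4 lower in ASO-L1 cells. Of the other lists 4 of 7 primed, 2 of 6 trophoblast, 2 of 6 primitive endoderm and 2 of 7 fibroblast markers were called higher. Of 6 core pluripotency markers 0 were called. Of all tested genes 18.0% were called higher and 15.7% lower, so 2 calls in a list this short are not in themselves a result about a cell type. The summed level of 10 naive markers was 302 to 307 CPM (counts scaled to library size, here with TMM factors) in ASO-L1 cells and 349 to 371 CPM in SO-L1 cells, that of 7 primed markers 645 to 736 CPM in ASO-L1 cells and 447 to 485 CPM in SO-L1 cells, that of 8 trophoblast markers 27.8 to 42.5 CPM in ASO-L1 cells and 24.9 to 30.0 CPM in SO-L1 cells, that of 6 primitive endoderm markers 111 to 114 CPM in ASO-L1 cells and 110.2 to 119 CPM in SO-L1 cells, and that of 8 fibroblast markers 617 to 712 CPM in ASO-L1 cells and 515 to 580 CPM in SO-L1 cells. Of the defining naive markers, KLF17 was low in both groups, at 0.395 CPM in ASO-L1 cells and 0.743 CPM in SO-L1 cells, and the naive marker ARGFX averaged 0.057 CPM in ASO-L1 cells and 0.130 CPM in SO-L1 cells, near 0. These 2 do not stand for their list, since the log2 fold changes of the 9 tested naive markers ran from -1.39 to 0.72. The pluripotency factor POU5F1 averaged 1136 CPM in ASO-L1 cells and 1265 CPM in SO-L1 cells. The fibroblast marker DCN was near 0 in both groups, at 0.0138 CPM in ASO-L1 cells and 0.109 CPM in SO-L1 cells, while the log2 fold changes of the 7 tested fibroblast markers ran from -0.22 to 1.32. The part of these differences in the results below was not tested. In RNA from whole cultures, fewer cells of a type and less RNA per cell cannot be told apart.

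The 31 genes did not move in one direction between ASO-L1 and SO-L1 cells. NDRG1, PFKFB3, VEGFA and HK2 were higher in ASO-L1 cells, and BNIP3, KDM3A, PFKP, PFKL, SLC2A1 and ENO1 were lower. A gene was called at an adjusted p under 0.05 in the edgeR quasi-likelihood test over all 16873 genes, with Benjamini-Hochberg adjustment. Of the 31 genes 4 were called higher, where 18.0% of all tested genes were, and 6 lower, where 15.7% were, with 33.7% of all tested genes called in either direction. Their shares are near these, so the number of calls is not in itself a result about them. The median log2 fold change of the 31 genes was -0.16 and that of all tested genes -0.01, and 9 of the 31 estimates lay above 0. In 7 genes every ASO-L1 library exceeded every SO-L1 library, which held for 25.8% of all tested genes, in 8 genes all lay below, which held for 25.1%, and in 16 genes the groups overlapped. Errors of log2 fold changes are standard errors. With 3 libraries against 3, the smallest two-sided p of an exact permutation test is 0.1, and single genes were not tested that way.

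Library 2 was the lowest of its group in both groups for 17 of the 31 genes, 54.8%, against 21.7% of all tested genes. One of them was LDHA, the lactate dehydrogenase subunit that favours lactate formation, which had 1067, 768 and 1099 CPM in ASO-L1 libraries 1 to 3 and 1317, 900 and 1358 CPM in SO-L1 libraries 1 to 3. Each ASO-L1 library lay below the SO-L1 library of the same number, yet the groups overlapped, because SO-L1 library 2 lay below ASO-L1 libraries 1 and 3. Over all 31 genes, 19 were lower in ASO-L1 cells in 3 of 3 such pairs, 9 were higher in 3 of 3, and PFKFB4, ALDOA and EGLN3 were mixed. The shares of all tested genes with such pairs were not counted, so these numbers are not in themselves a result about the 31 genes. With the replicate number as a block, 6 genes were called higher, against 23.3% of all tested genes, and 14 lower, against 22.5%. The 10 calls made without the block were among these 20. Whether the numbers mark paired cultures is not stated, and the check of the pairing stands with the methods.

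**Figure D1:**
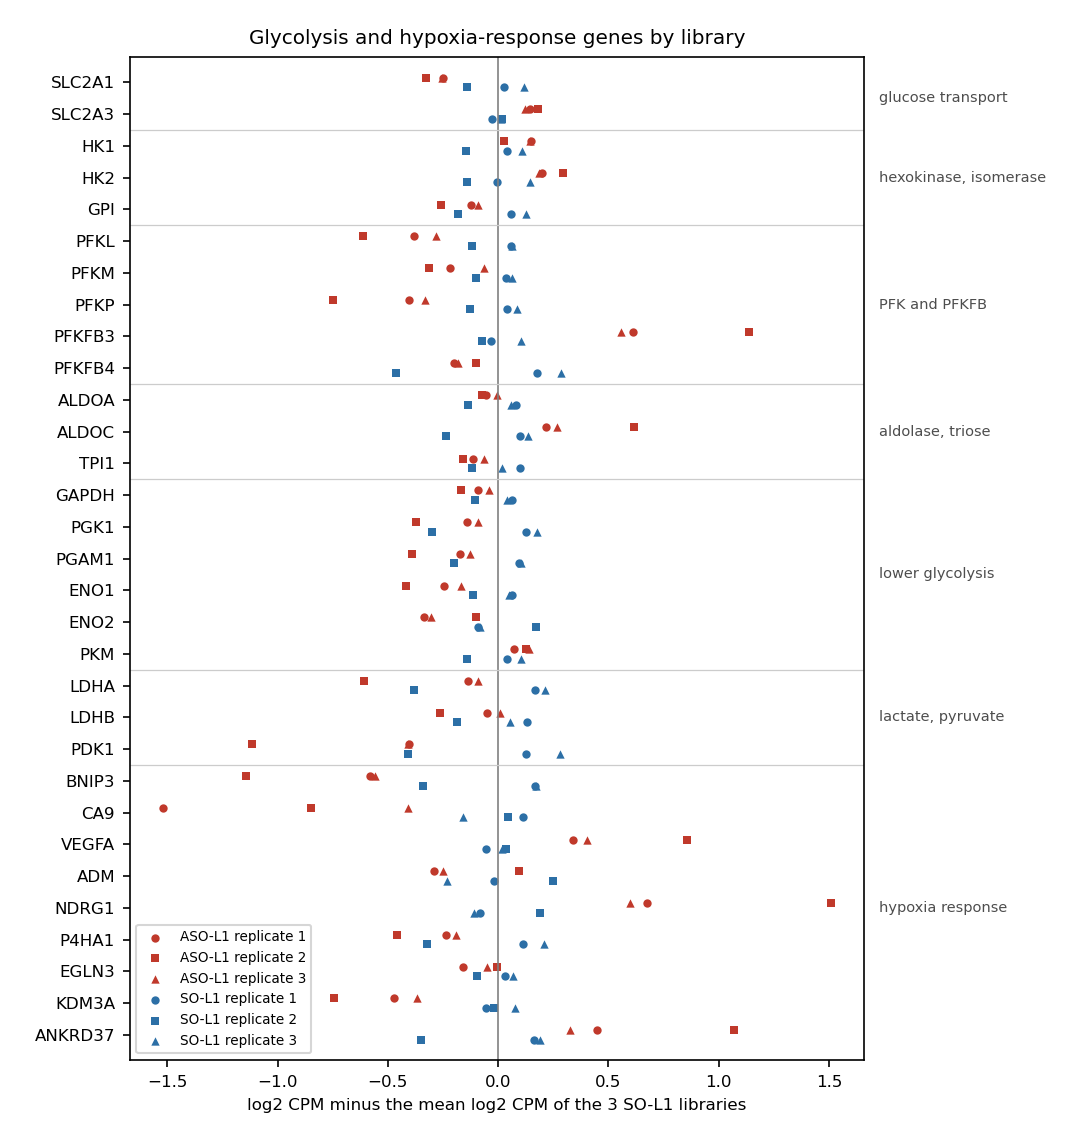
Level of each of the 31 genes in each library, as log2 CPM minus the mean log2 CPM of the 3 SO-L1 libraries (horizontal axis), with ASO-L1 libraries in red above SO-L1 libraries in blue and the marker shape giving the replicate number. Squares, which mark replicate 2, are the lowest points of both groups for 17 genes, and the red points of NDRG1, PFKFB3 and VEGFA lie to the right of all blue points.

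The hypoxia response element, the DNA site bound by HIF, has ACGTG or GCGTG as its core. RefSeq start sites in GRCh38.p14 matched 28 of the 31 genes; VEGFA, NDRG1 and SLC2A3 are named only. Within 250 bases upstream of a start, ACGTG on either strand was present for 17 of the 28 genes, 60.7%, against 21.7% of the 27305 genes with such starts, tested here or not. GCGTG was present for 14 of the 28, 50.0%, against 36.2%. A gene with several start sites counted once if any of its windows held the motif. This favours genes with many windows, and HK1 and PFKM had 7 each. Of the 35116 single windows of all genes, 18.5% held ACGTG. The 31 genes were chosen as glycolysis genes and known hypoxia targets, so a higher share of this core could be foreseen and is not a result of these data. CACGTG, the E-box that MYC and other factors also bind, counts as a match of ACGTG on each strand. The motif was found for 2 of the 2 matched genes called higher, 2 of the 6 called lower and 13 of the 20 not called. The windows of 4 genes with an ACGTG match are shown, because these genes lie on different sides of the comparison: PFKFB3 and HK2 were called higher, BNIP3 was called lower, and LDHA was called with the replicate block but not without it. Each is the 250 bases upstream of one RefSeq start, written 5′ to 3′ on the strand of the gene, with capitals marking ACGTG or its complement CACGT.
PFKFB3: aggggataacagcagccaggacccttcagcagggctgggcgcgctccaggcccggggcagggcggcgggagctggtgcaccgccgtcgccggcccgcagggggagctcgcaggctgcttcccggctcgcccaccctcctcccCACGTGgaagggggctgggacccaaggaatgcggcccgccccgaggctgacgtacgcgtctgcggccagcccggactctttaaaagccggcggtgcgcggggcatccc
HK2: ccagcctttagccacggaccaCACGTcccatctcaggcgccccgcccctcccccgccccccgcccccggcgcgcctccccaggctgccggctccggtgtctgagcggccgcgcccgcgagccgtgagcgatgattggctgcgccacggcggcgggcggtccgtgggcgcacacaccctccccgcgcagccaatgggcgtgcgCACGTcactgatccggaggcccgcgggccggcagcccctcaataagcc
BNIP3: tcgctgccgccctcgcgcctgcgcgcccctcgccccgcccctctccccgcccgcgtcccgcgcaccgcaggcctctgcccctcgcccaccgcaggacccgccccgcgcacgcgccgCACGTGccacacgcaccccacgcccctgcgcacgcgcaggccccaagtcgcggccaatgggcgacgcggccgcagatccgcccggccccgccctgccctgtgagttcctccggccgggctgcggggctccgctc
LDHA: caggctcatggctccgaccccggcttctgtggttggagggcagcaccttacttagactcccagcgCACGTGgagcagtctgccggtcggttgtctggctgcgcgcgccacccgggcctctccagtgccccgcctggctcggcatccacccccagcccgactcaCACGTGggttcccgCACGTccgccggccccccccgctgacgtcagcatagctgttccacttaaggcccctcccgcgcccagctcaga
The PFKFB3 window is chr10:6202682-6202931 on the plus strand, upstream of the second of 2 start sites, and its capitals form an E-box. The HK2 window, upstream of the first of 2 start sites, is chr2:74833877-74834126 on the plus strand and has 2 separate matches, neither in an E-box, while the window of the other start, not shown, has 4 matches that make up 2 E-boxes. The BNIP3 window is chr10:131981924-131982173 on the minus strand, with 1 E-box. The LDHA window, chr11:18394313-18394562 on the plus strand and upstream of the first of 2 start sites, has 5 matches, of which 4 make up 2 E-boxes. A match describes the letters and does not show that a factor binds there.

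Glucose enters the cells through transporters, and the 2 of the list moved apart. SLC2A1, the transporter GLUT1, a well-known HIF target, had 253, 240 and 252 CPM in ASO-L1 libraries 1 to 3 and 306, 273 and 326 CPM in SO-L1 libraries 1 to 3. All ASO-L1 libraries lay below all SO-L1 libraries. It averaged 248 ± 7.42 CPM in ASO-L1 cells and 301 ± 26.8 CPM in SO-L1 cells (SD, n = 3 each) and was lower, with a log2 fold change of -0.28 ± 0.07 and an edgeR adjusted p = 0.0152. The call was lost without SO-L1 library 1 (adjusted p = 0.0603), without SO-L1 library 3 (0.0794), and without library 1 (0.151) or library 3 (0.152) of both groups, in a range of 1.1e-06 to 0.152 over all 17 alternatives. SLC2A3, the high-affinity transporter GLUT3, had 521, 533 and 511 CPM in ASO-L1 libraries and 461, 476 and 475 CPM in SO-L1 libraries, again without overlap but in the other direction. Its log2 fold change of 0.15 ± 0.06 missed the threshold (edgeR adjusted p = 0.0615) and passed it with the replicate block (0.0404). The ratio of SLC2A3 to SLC2A1 counts was 2.06, 2.22 and 2.03 in ASO-L1 libraries and 1.51, 1.74 and 1.46 in SO-L1 libraries, so that every ASO-L1 library had the higher share of SLC2A3. Per kilobase of exon, SLC2A3 was the more abundant transporter in both groups, at 133 ± 2.74 CPM per kb in ASO-L1 cells and 120.2 ± 2.04 in SO-L1 cells, where SLC2A1 had 62.3 ± 1.86 and 75.6 ± 6.72.

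Hexokinase phosphorylates glucose to glucose 6-phosphate and so traps it in the cell. HK2, the inducible isoenzyme that sits on mitochondria, had 181, 193 and 179 CPM in ASO-L1 libraries 1 to 3 and 157, 143 and 174 CPM in SO-L1 libraries 1 to 3. The groups did not overlap, but ASO-L1 library 3 and SO-L1 library 3 were close. HK2 was higher in ASO-L1 cells, 184 ± 7.58 CPM against 158 ± 15.7 CPM (SD, n = 3 each), with a log2 fold change of 0.22 ± 0.08 and an edgeR adjusted p = 0.0484. This call was the least firm of the 10 called genes and was lost in 11 of the 17 alternatives, including DESeq2 (adjusted p = 0.0522), upper-quartile scaling (0.106), scaling by library totals (0.069), and the removal of any 1 library except SO-L1 library 3; over all 17 the adjusted p ran from 0.0136 with the replicate block to 0.209 without library 1 of both groups, and without library 2 of both groups the log2 fold change was 0.12. HK1, the constitutive isoenzyme, averaged 305 ± 14.3 CPM in ASO-L1 cells and 284 ± 25.1 CPM in SO-L1 cells and was not called (log2 fold change 0.10 ± 0.07). The HK2 to HK1 ratio was 0.577, 0.669 and 0.572 in ASO-L1 libraries and 0.539, 0.558 and 0.572 in SO-L1 libraries, and these ranges met. Glucose-6-phosphate isomerase, GPI, averaged 427 ± 25.8 CPM in ASO-L1 cells and 477 ± 52.4 CPM in SO-L1 cells. Its log2 fold change was -0.16 ± 0.08, with an edgeR adjusted p = 0.163, and 0.0345 with the replicate block; without SO-L1 library 2 it was 0.0297, in a range of 9.1e-04 to 0.491.

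Of the 5 genes of the committed step of glycolysis and its allosteric control, 1 was called higher and 2 lower. Of all tested genes 18.0% and 15.7% were, and with so few genes the number of calls is not a result about this step. The calls went in opposite directions: 2 subunits of the enzyme fell and PFKFB3, which makes its activator, rose. Phosphofructokinase is a tetramer of the liver-type subunit PFKL, the platelet-type PFKP and the muscle-type PFKM. PFKL had 285, 242 and 305 CPM in ASO-L1 libraries 1 to 3 and 385, 341 and 387 CPM in SO-L1 libraries 1 to 3. PFKP had 173, 136 and 182 CPM in ASO-L1 libraries and 235, 209 and 243 CPM in SO-L1 libraries. In both genes library 2 was the lowest of each group, and all ASO-L1 libraries lay below all SO-L1 libraries. PFKL fell by 0.42 ± 0.09 on the log2 scale (edgeR adjusted p = 0.00638), and PFKP by 0.49 ± 0.11 (0.00791). Both calls were lost in 1 of 17 alternatives, without library 1 of both groups, with an adjusted p of 0.0923 for PFKL (range 3.3e-08 to 0.0923) and 0.0799 for PFKP (3.5e-09 to 0.0799). PFKM, the third subunit, averaged 69.9 ± 6.08 CPM in ASO-L1 cells and 80.1 ± 4.83 CPM in SO-L1 cells; its log2 fold change of -0.20 ± 0.08 had an edgeR adjusted p = 0.0858, and 0.0179 with the block. Without ASO-L1 library 3 it was 0.0415, in a range of 0.00821 to 0.435. PFKM shares exon sequence with SENP1 on the opposite strand, whose counts came to 40.4% of those of PFKM, and strand use in the counting is not stated.

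Within a library, PFKM counts were 0.242, 0.266 and 0.251 of PFKL counts in ASO-L1 libraries and 0.213, 0.219 and 0.216 in SO-L1 libraries. The PFKP to PFKL ratio was 0.606, 0.562 and 0.597 in ASO-L1 libraries and 0.611, 0.614 and 0.627 in SO-L1 libraries. Neither pair of ranges overlapped, with PFKM taking a larger and PFKP a slightly smaller part relative to PFKL in ASO-L1 cells. SENP1, which overlaps PFKM, had 774, 805 and 1013 counts in ASO-L1 libraries 1 to 3 and 872, 665 and 901 in SO-L1 libraries 1 to 3. Without knowledge of strand use, the PFKM ratio is uncertain on this point. Per kilobase of exon the order was the same in both groups: PFKL had 93.8 ± 10.8 CPM per kb in ASO-L1 cells and 125.5 ± 8.90 in SO-L1 cells, PFKP had 43.3 ± 6.43 and 60.6 ± 4.68, and PFKM had 14.6 ± 1.27 and 16.8 ± 1.01.

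PFKFB enzymes make and break fructose 2,6-bisphosphate, the strongest activator of phosphofructokinase; PFKFB3 is the isoenzyme with the highest kinase activity relative to its phosphatase activity. PFKFB3 had 82.3, 118.7 and 79.2 CPM in ASO-L1 libraries 1 to 3 and 52.7, 51.2 and 58.0 CPM in SO-L1 libraries 1 to 3. Every ASO-L1 library lay above every SO-L1 library, and ASO-L1 library 2 stood highest. It averaged 93.4 ± 22.0 CPM in ASO-L1 cells and 54.0 ± 3.56 CPM in SO-L1 cells (SD, n = 3 each), or 1.73-fold, with a log2 fold change of 0.79 ± 0.15 and an edgeR adjusted p = 0.00566. This was the one call of the 10 that no alternative removed, with adjusted p values of 4.5e-17 to 0.0464 and log2 fold changes of 0.54 to 0.95; without ASO-L1 library 2 the log2 fold change was 0.58. PFKFB4, its hypoxia-inducible relative, had 26.2, 28.2 and 26.7 CPM in ASO-L1 libraries against 34.1, 21.9 and 36.8 CPM in SO-L1 libraries. SO-L1 library 2 was the lowest of all 6, and the log2 fold change of -0.20 ± 0.17 was not called (edgeR adjusted p = 0.385). Without SO-L1 library 2 it was called lower (0.0123), as without library 2 of both groups (5.1e-06), within a range that reached 0.895. The PFKFB4 to PFKFB3 ratio was 0.319, 0.237 and 0.336 in ASO-L1 libraries and 0.647, 0.428 and 0.635 in SO-L1 libraries, a mean log2 difference of -0.93 without overlap. Per kilobase, PFKFB3 and PFKFB4 were within their spread in SO-L1 cells, at 9.91 ± 0.65 and 8.63 ± 2.21 CPM per kb, while in ASO-L1 cells they stood at 17.2 ± 4.04 and 7.53 ± 0.28; lengths are GENCODE 29 exon unions, and the annotation behind the counts is not stated.

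**Figure D2:**
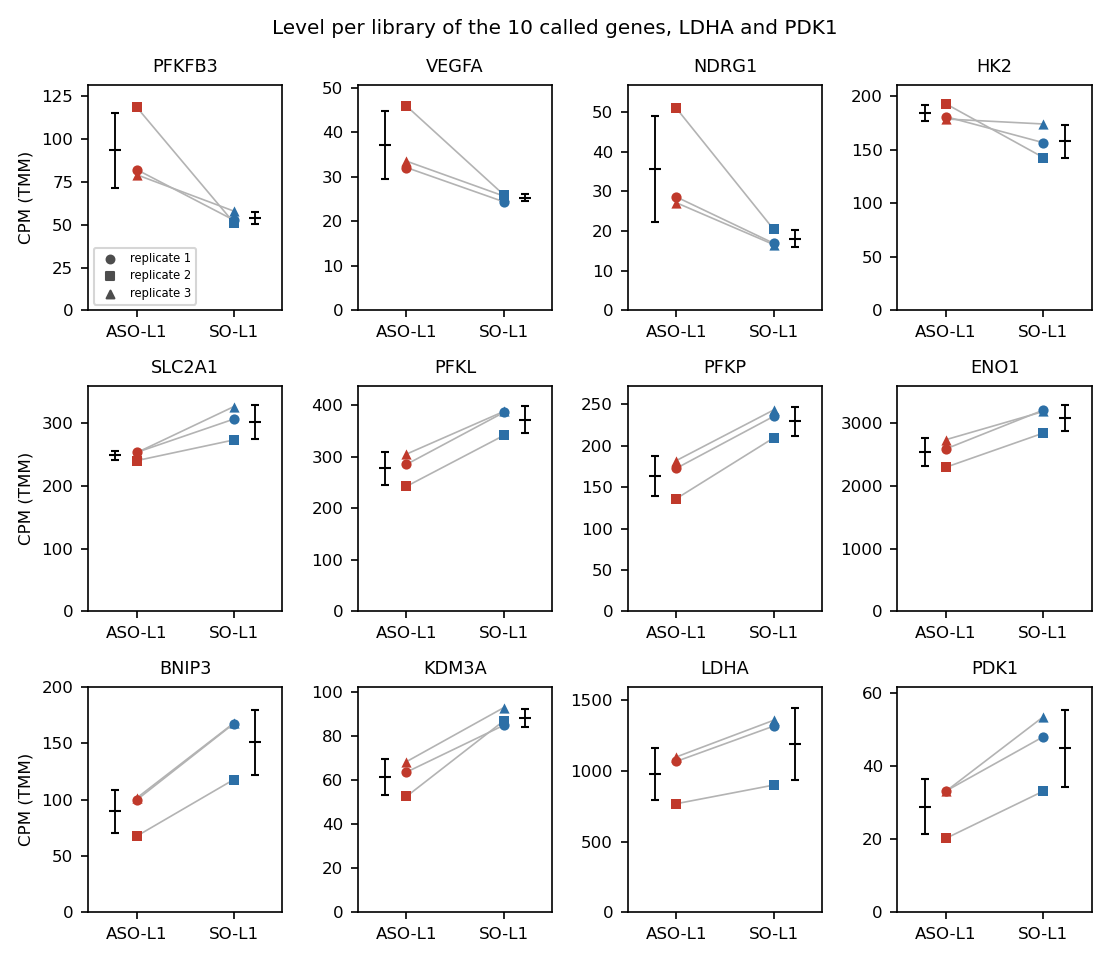
CPM in each library for the 10 called genes and for LDHA and PDK1, with ASO-L1 (red) left of SO-L1 (blue), lines joining libraries of the same replicate number, and black bars giving the mean and SD of 3 libraries. PFKFB3, VEGFA, NDRG1 and HK2 are higher in ASO-L1 cells, and in LDHA and PDK1 all 3 lines go down towards ASO-L1 although the groups overlap.

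Aldolase cleaves fructose 1,6-bisphosphate and triose-phosphate isomerase interconverts the 2 products; edgeR called none of the 3 genes of these steps in the fit on group alone, where DESeq2 called ALDOC higher. ALDOA, the main aldolase, averaged 1422 ± 35.0 CPM in ASO-L1 cells and 1470 ± 119 CPM in SO-L1 cells, with a log2 fold change of -0.05 ± 0.07. TPI1 averaged 1224 ± 40.4 CPM in ASO-L1 cells and 1325 ± 101 CPM in SO-L1 cells (-0.11 ± 0.07) and was called lower only without library 2 of both groups (edgeR adjusted p = 0.0156, in a range of 0.0156 to 0.757). ALDOC, the brain-type aldolase and a HIF target, had 59.2, 78.0 and 61.2 CPM in ASO-L1 libraries 1 to 3 and 54.6, 43.2 and 56.0 CPM in SO-L1 libraries 1 to 3. The groups did not overlap, and the 2 libraries numbered 2 were the farthest apart. Its log2 fold change was 0.37 ± 0.13, with an edgeR adjusted p = 0.0505, just past the threshold, and 0.0206 with the block. It was called in 6 of the 17 alternatives, among them DESeq2 (0.024) and the fits without ASO-L1 library 1 (0.037) or ASO-L1 library 3 (0.0494), over a range of 7.1e-04 to 0.137. ALDOC counts were 0.0419, 0.0560 and 0.0419 of ALDOA counts in ASO-L1 libraries and 0.0353, 0.0324 and 0.0366 in SO-L1 libraries, with no overlap.

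The second phase of glycolysis, from GAPDH to pyruvate kinase, holds the most abundant of the 31 transcripts, and of its 6 genes ENO1 alone was called. ENO1, the main enolase, which makes phosphoenolpyruvate, had 2589, 2297 and 2735 CPM in ASO-L1 libraries 1 to 3 and 3205, 2839 and 3182 CPM in SO-L1 libraries 1 to 3. All ASO-L1 libraries lay below all SO-L1 libraries, and library 2 was the lowest in both groups. ENO1 fell by 0.28 ± 0.08 on the log2 scale (edgeR adjusted p = 0.0244). The call was lost without ASO-L1 library 1 (adjusted p = 0.0723), SO-L1 library 1 (0.0889) or SO-L1 library 3 (0.0957), and without library 1 (0.201) or library 3 (0.0898) of both groups; over the 17 alternatives the adjusted p ran from 8.0e-05 to 0.201. ENO2, the neuronal enolase, had 282, 332 and 288 CPM in ASO-L1 libraries and 334, 402 and 337 CPM in SO-L1 libraries, also without overlap but with library 2 highest. Its log2 fold change of -0.25 ± 0.09 had an edgeR adjusted p = 0.0524, and 0.0018 with the block; without ASO-L1 library 2 it was 0.00808, in a range of 1.1e-04 to 0.214. The ENO2 to ENO1 ratio overlapped between the groups, at 0.109, 0.145 and 0.105 in ASO-L1 libraries and 0.104, 0.142 and 0.106 in SO-L1 libraries.

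PGK1, which makes the first ATP of the pathway, averaged 710 ± 71.8 CPM in ASO-L1 cells and 822 ± 141 CPM in SO-L1 cells. PGAM1, which moves the phosphate group of 3-phosphoglycerate, averaged 448 ± 42.7 CPM in ASO-L1 cells and 526 ± 61.0 CPM in SO-L1 cells. Both had overlapping groups, were lower in 3 of 3 pairs, and were called lower with the block but not without it, PGK1 with a log2 fold change of -0.21 ± 0.13 (edgeR adjusted p = 0.228, with the block 0.0128) and PGAM1 with -0.23 ± 0.10 (0.0864, with the block 0.0033). Without SO-L1 library 2 both were also called, at an adjusted p of 0.0191 for PGK1 (range 2.9e-05 to 0.551) and 0.021 for PGAM1 (5.7e-05 to 0.354). GAPDH averaged 1781 ± 79.8 CPM in ASO-L1 cells and 1910 ± 119 CPM in SO-L1 cells, a log2 fold change of -0.10 ± 0.07, and PKM, which makes pyruvate, averaged 1563 ± 38.1 CPM in ASO-L1 cells and 1448 ± 126 CPM in SO-L1 cells, a log2 fold change of 0.11 ± 0.07. Neither was called in any of the 17 alternatives. PKM and the hexokinases were the enzymes of the trunk pathway with estimates above 0, beside ALDOC. Per kilobase ENO1 was the most abundant of the 31 genes in both groups, at 1057 ± 92.8 CPM per kb in ASO-L1 cells and 1279 ± 85.3 in SO-L1 cells, followed by GAPDH with 801 ± 35.9 and 859 ± 53.7.

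The fate of pyruvate is set by lactate dehydrogenase and by the kinases that switch off pyruvate dehydrogenase, and edgeR called no gene of this branch in the fit on group alone over all 6 libraries, where DESeq2 called PDK1 lower. LDHA averaged 978 ± 182 CPM in ASO-L1 cells and 1191 ± 253 CPM in SO-L1 cells. Its log2 fold change of -0.28 ± 0.19 had an edgeR adjusted p = 0.297, and 9.1e-04 with the block, the pair differences being -0.30, -0.23 and -0.31. Without SO-L1 library 2 it was 0.0431, in a range of 4.6e-06 to 0.660. PDK1, the pyruvate dehydrogenase kinase induced by HIF, had 33.3, 20.3 and 33.2 CPM in ASO-L1 libraries 1 to 3 and 48.1, 33.2 and 53.6 CPM in SO-L1 libraries 1 to 3. SO-L1 library 2 met the level of ASO-L1 libraries 1 and 3, and each ASO-L1 library was below the SO-L1 library of its number. The log2 fold change was -0.64 ± 0.24, with an edgeR adjusted p = 0.0795 without the block, 4.1e-06 with it, 0.00527 in DESeq2 and 0.0196 without SO-L1 library 2, in a range of 2.7e-09 to 0.278. LDHB, the subunit that favours pyruvate formation, averaged 702 ± 67.6 CPM in ASO-L1 cells and 754 ± 84.0 CPM in SO-L1 cells and was not called (-0.10 ± 0.09). The LDHA to LDHB ratio was 1.47, 1.23 and 1.45 in ASO-L1 libraries and 1.60, 1.36 and 1.75 in SO-L1 libraries, and the ranges overlapped.

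**Figure D3:**
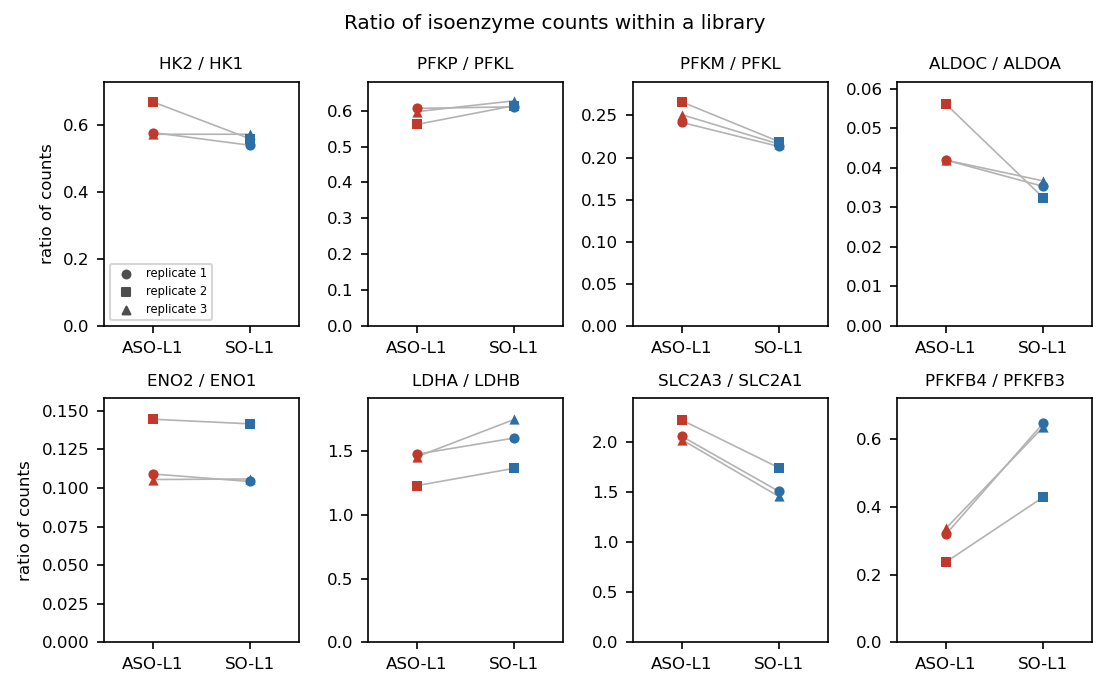
Ratio of the counts of 2 genes in the same library (vertical axis, from 0), with ASO-L1 (red) left of SO-L1 (blue) and lines joining libraries of the same replicate number. SLC2A3 over SLC2A1 is 2.03 to 2.22 in ASO-L1 libraries and 1.46 to 1.74 in SO-L1 libraries, and PFKFB4 over PFKFB3 is 0.237 to 0.336 and 0.428 to 0.647.

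Of the 9 hypoxia-response genes, 2 were called higher and 2 lower in ASO-L1 cells, which is near the 18.0% and 15.7% of all tested genes. NDRG1, a stress-responsive gene with a role in growth arrest and differentiation, had 28.6, 51.0 and 27.1 CPM in ASO-L1 libraries 1 to 3 and 16.9, 20.5 and 16.6 CPM in SO-L1 libraries 1 to 3. The groups did not overlap, with library 2 the highest of each group. NDRG1 averaged 35.6 ± 13.4 CPM in ASO-L1 cells and 18.0 ± 2.14 CPM in SO-L1 cells (SD, n = 3 each), 1.97-fold, the largest increase among the 31 genes, with a log2 fold change of 0.98 ± 0.25 and an edgeR adjusted p = 0.0228. The call was lost without SO-L1 library 3 (adjusted p = 0.072) and without library 1 of both groups (0.0576), over a range of 1.4e-09 to 0.072. Without ASO-L1 library 2 the NDRG1 log2 fold change was 0.63 (adjusted p = 5.3e-04). VEGFA, the main angiogenic growth factor, had 32.1, 45.9 and 33.5 CPM in ASO-L1 libraries and 24.4, 26.0 and 25.7 CPM in SO-L1 libraries. Its groups were apart as well, and ASO-L1 library 2 was again the highest. VEGFA rose by 0.55 ± 0.13 on the log2 scale (edgeR adjusted p = 0.00979), and the call was lost without SO-L1 library 1 (0.0546) and without library 1 of both groups (0.0585), over a range of 1.8e-06 to 0.0585. Without ASO-L1 library 2 the log2 fold change was 0.37 (0.00261).

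BNIP3, a mitochondrial receptor for mitophagy, had 99.7, 67.6 and 101 CPM in ASO-L1 libraries 1 to 3 and 167, 118 and 168 CPM in SO-L1 libraries 1 to 3. The groups did not overlap, and library 2 was the lowest in both. BNIP3 fell to 89.5 ± 19.0 CPM in ASO-L1 cells, against 151 ± 28.8 CPM in SO-L1 cells (SD, n = 3 each), the largest called decrease among the 31 genes, with a log2 fold change of -0.75 ± 0.19 and an edgeR adjusted p = 0.0249. It was lost with no filter on low counts (adjusted p = 0.125), without ASO-L1 library 2 (0.0585), SO-L1 library 1 (0.0502) or SO-L1 library 3 (0.0714), and without library 1 (0.0775) or library 3 (0.0857) of both groups, while the block gave 5.1e-08, with pair differences of -0.75, -0.80 and -0.73. Over the 17 alternatives the adjusted p ran from 1.5e-14 to 0.125. Rows of BNIP3 pseudogenes held 9.83% as many counts as BNIP3 in ASO-L1 cells and 10.5% in SO-L1 cells, and how reads from these copies were assigned is not stated, so the level is uncertain on this point. KDM3A, a histone H3 lysine 9 demethylase that HIF induces, had 63.7, 52.6 and 68.4 CPM in ASO-L1 libraries and 84.9, 87.0 and 92.9 CPM in SO-L1 libraries. All ASO-L1 libraries were below all SO-L1 libraries, and KDM3A fell by 0.52 ± 0.09 on the log2 scale, with an edgeR adjusted p = 0.00381, the smallest of the 31 genes. It was lost in 1 alternative, without library 1 of both groups (0.0563, in a range of 1.5e-08 to 0.0563).

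The other 5 hypoxia targets were not called. P4HA1, a subunit of the enzyme that hydroxylates collagen, averaged 56.9 ± 5.46 CPM in ASO-L1 cells and 70.5 ± 13.1 CPM in SO-L1 cells, with a log2 fold change of -0.31 ± 0.13 (edgeR adjusted p = 0.1001) that was called with the block (0.0024) and without SO-L1 library 2 (0.0109), in a range of 2.2e-06 to 0.356. ADM, the vasodilator peptide adrenomedullin, averaged 27.4 ± 4.17 CPM in ASO-L1 cells and 30.5 ± 5.08 CPM in SO-L1 cells (-0.15 ± 0.14). EGLN3, the hypoxia-induced prolyl hydroxylase, averaged 32.9 ± 1.80 CPM in ASO-L1 cells and 34.6 ± 2.06 CPM in SO-L1 cells (-0.07 ± 0.08). CA9, carbonic anhydrase IX, often used as a sensitive marker of HIF activity, had only 4, 6 and 11 counts in ASO-L1 libraries 1 to 3 and 16, 12 and 13 counts in SO-L1 libraries 1 to 3. With so few reads, the log2 fold change of -0.83 ± 0.40 was not called (edgeR adjusted p = 0.135). ANKRD37, an ankyrin-repeat protein gene induced by hypoxia, had 36, 52 and 42 counts in ASO-L1 libraries and 38, 21 and 38 counts in SO-L1 libraries, and its log2 fold change of 0.61 ± 0.27 was not called (0.111). Both share exon sequence with a gene on the opposite strand, CA9 with ARHGEF39 (270, 188 and 385 counts in ASO-L1 libraries, 403, 291 and 393 in SO-L1 libraries) and ANKRD37 with UFSP2 (506, 340 and 588 counts, and 823, 601 and 890), so without knowledge of strand use their few reads cannot be told apart from those of the neighbour.

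**Figure D4:**
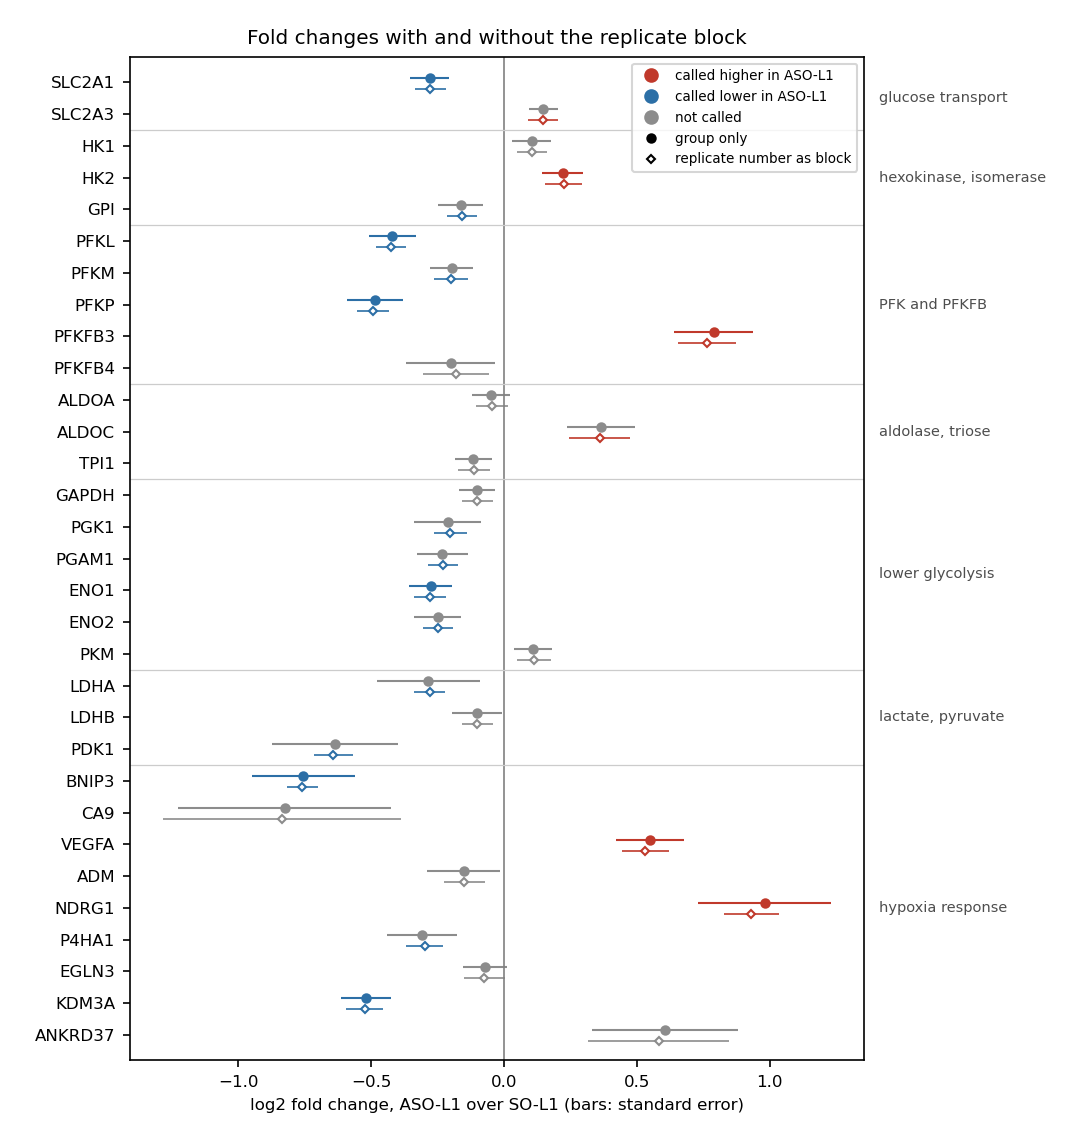
Log2 fold change of ASO-L1 over SO-L1 for the 31 genes (horizontal axis, bars giving the standard error), with filled circles for the fit on group alone and open diamonds for the fit with the replicate number as a block; red marks genes called higher, blue genes called lower and grey genes not called. The estimates hardly differ between the fits, while the errors of PDK1, LDHA, BNIP3, PGK1 and NDRG1 are smaller with the block.

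The genes that run the hypoxia response were described from a list of 10, all tested. Of these, 3 were called higher and 1 lower, where 18.0% and 15.7% of all tested genes were. With so few genes the number of calls is not a result about this list. HIF1A, the oxygen-regulated subunit of HIF-1, had 247, 220 and 248 CPM in ASO-L1 libraries 1 to 3 and 274, 299 and 289 CPM in SO-L1 libraries 1 to 3. It lay below in every ASO-L1 library and fell by 0.27 ± 0.07 on the log2 scale (edgeR adjusted p = 0.0136). The 3 genes called higher act in its degradation. They were VHL, the ubiquitin ligase subunit that recognises hydroxylated HIF, by 0.43 ± 0.11 (edgeR adjusted p = 0.0168), EGLN1, the main HIF prolyl hydroxylase, by 0.40 ± 0.13 (0.0373), and EGLN2, a second hydroxylase, by 0.34 ± 0.10 (0.0299), whereas EGLN3, the third of these hydroxylases and one of the 31 genes, was not called (-0.07 ± 0.08). EPAS1, which codes for HIF-2α (0.14 ± 0.25), HIF3A (-0.26 ± 0.17), the partner subunits ARNT (-0.11 ± 0.07) and ARNT2 (-0.30 ± 0.16), and HIF1AN, the asparaginyl hydroxylase that inhibits HIF (0.12 ± 0.07), were not called. CITED2, which competes with HIF for its coactivator, had a log2 fold change of 0.44 ± 0.23 (edgeR adjusted p = 0.177) and was called with the block (0.0011). Whether the calls of HIF1A, VHL, EGLN1 and EGLN2 hold when libraries are left out was not tested. HIF-1α is regulated mainly as a protein, which these data do not measure.

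A further 34 known hypoxia targets outside the 31 were all tested, and 7 were called higher and 9 lower, where 18.0% and 15.7% of all tested genes were, with a median log2 fold change of -0.14. The 4 called with the smallest p were WSB1 (-0.58 ± 0.08), a ubiquitin ligase subunit, PLOD2 (-0.88 ± 0.12), a collagen lysyl hydroxylase, JMJD6 (0.82 ± 0.12), a JmjC-domain oxygenase, and ERO1L (0.71 ± 0.11), an oxidase of protein folding in the endoplasmic reticulum. As in the 9 hypoxia genes above, both directions occurred. Of 19 further transporter and enzyme isoforms of glycolysis, 8 were expressed enough to be tested, and 2 were called higher and 1 lower, where 18.0% and 15.7% of all tested genes were. BPGM (0.62 ± 0.13), which makes 2,3-bisphosphoglycerate, and PFKFB2 (0.34 ± 0.08) were higher, and SLC2A4 (-0.55 ± 0.19), the insulin-responsive transporter GLUT4, was lower. PFKFB2 and PFKFB3 were thus both called higher in ASO-L1 cells, whereas PFKFB4 of the same family (-0.20 ± 0.17) was not called.

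**Figure D5:**
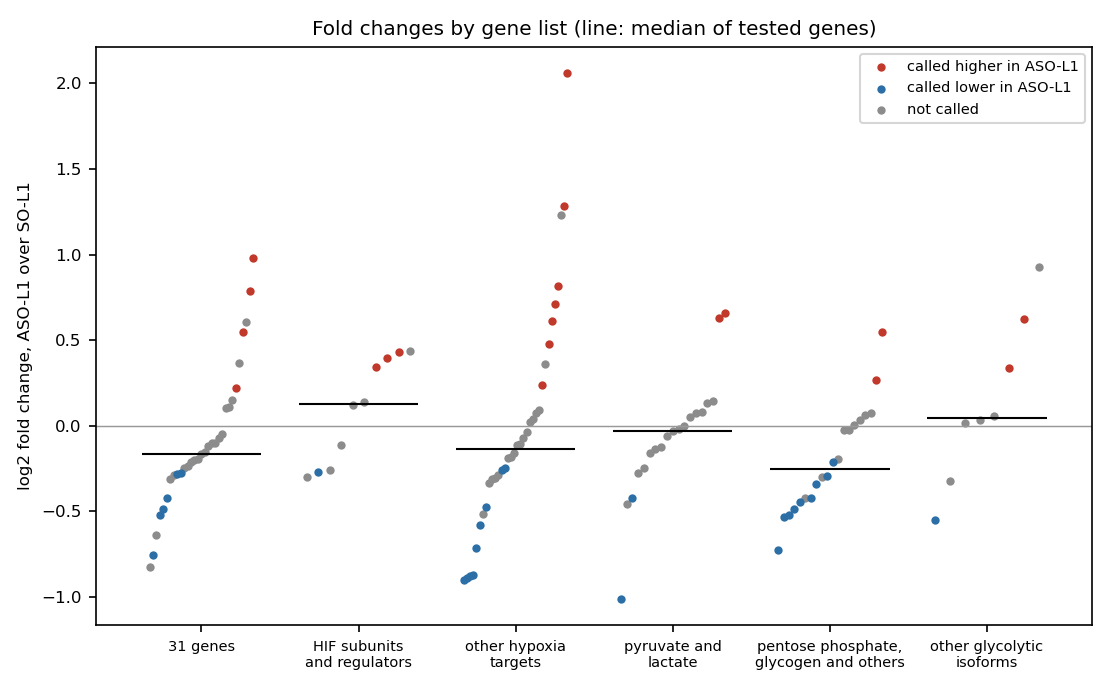
Log2 fold change of ASO-L1 over SO-L1 (vertical axis) for each tested gene of the 31 and of 5 related lists, in order of size within a list, with red for genes called higher, blue for genes called lower, grey for genes not called and a line at each list's median. The 31 genes (median -0.16) and the 34 other hypoxia targets (median -0.14) spread to both sides of 0.

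The authors' deposited table of their own comparison, whose model is not stated, lists all 31 genes. At an adjusted p under 0.05 it calls 3 of the 31 higher and 6 lower, against 2444 higher and 2049 lower of all its 20964 genes. These members are the genes called here apart from HK2. For HK2 the authors' deposited table gives a log2 fold change of 0.21 and an adjusted p of 0.112. The study holds only the 6 libraries used here, so this table is not an independent check.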

How the data were processed

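The authors deposited whole-number read counts per gene symbol for 6 libraries, described in the title of the table as raw with duplicates removed. Per the submitters' processing notes, the tools were featureCounts, TopHat2 2.0.13, Subread 1.5.0 and Trim Galore 0.4.0 and the build was hg19, with no roles stated. Annotation, strand use and duplicate removal are not described in these notes or labels. Removal of duplicates without molecular identifiers lowers abundant genes most. The authors also deposited a comparison table with, per the file headers, log2 fold changes, p-values and a moderated t score, which is quoted once, and a batch-corrected table of log2 values, which was not used.

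Counts were filtered with filterByExpr (minimum count 10, minimum total 15), scaled by TMM and tested with the edgeR 4.0.16 quasi-likelihood test (robust, two-sided, group only) on R 4.3.3, with Benjamini-Hochberg adjustment over all 16873 tested genes. CPM are given as mean ± SD. The common biological coefficient of variation was 10.2%. The test was checked on simulated counts. Within-group libraries differed by more than sampling noise, most for library 2. The 31 genes, the related lists and the naming rule (every member; every HIF regulator; of each other list up to 4 called genes with the smallest p) were chosen with earlier results of these data known.

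Same-numbered libraries were taken as pairs by assumption. Their deviations from the group means correlated at 0.102, 0.377 and 0.211 for numbers 1, 2 and 3. The cross-correlations of numbers 1 and 3 were of similar size (0.156 for SO-L1 library 1 with ASO-L1 library 3, 0.162 for the reverse). Only number 2 thus stands out, and these values cannot establish that the numbers mark pairs. Alternatives were DESeq2 1.42.0, limma-voom 3.58.1, RLE, upper-quartile and total scaling, no filter, a filter of CPM above 1 in 3 libraries, the replicate block, and leaving out each library and each number. Levels per kilobase used GENCODE 29 exon lengths. Promoters are from RefSeq GRCh38.p14, a build other than that of the counts, matched by symbol. Symbols of the count table were used as given, and older ones were matched through RefSeq synonyms (ERO1L for ERO1A, C12orf5 for TIGAR).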

Additional observations from a re-analysis of the deposited data

How the results depend on the processing

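RLE scaling and limma-voom changed no call among the 31 genes, and no scaling reversed the direction of any. Of all genes called with TMM scaling, 53.3% were called higher. Upper-quartile scaling moved this part of the called genes to 46.1%, and scaling by library totals to 46.7%. With the replicate block 14 of the 31 genes were lower instead of 6, where 22.5% of all tested genes were lower instead of 15.7%. When libraries were left out, all called genes numbered 1183 to 7197 instead of 5684, those of the 31 called higher 1 to 4 instead of 4, and those called lower 0 to 16 instead of 6. In what follows, percentages in brackets are shares of all tested genes in the same fit. Without SO-L1 library 1, 3166 genes were called, with 2 of the 31 higher (10.1%) and 3 lower (8.51%). Without SO-L1 library 2, 5322 were called, with 13 of the 31 lower (13.8%). Without SO-L1 library 3, 2975 were called, with 3 of the 31 lower (8.07%). Without library 1 of both groups, 1183 were called, with 1 of the 31 higher (4.45%) and 0 lower (2.50%). Without library 2 of both groups, 7197 were called, with 16 of the 31 lower (20.1%). Without library 3 of both groups, 2820 were called, with 3 of the 31 lower (7.23%). Beside the 0 from edgeR, 6 of the 31 were lower at an unadjusted p under 0.05, and no other tool was run without these libraries. A removed SO-L1 or ASO-L1 library leaves 2 in its group, and the cause of these differences was not tested. With ranges of -0.12 to 0.01, the log2 fold change of ALDOA, not called, reversed without library 1 of both groups (0.0099). When any 1 library was left out, the isoenzyme ratios moved by less than 1 SD, and all except ENO2 over ENO1 kept their direction; the log2 difference of ENO2 over ENO1, 0.03, was -0.11 without ASO-L1 library 2, -0.05 without SO-L1 library 1 and -0.04 without SO-L1 library 3. Depth limits CA9 and ANKRD37, whose counts per library were low.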

Other observations

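Branches that leave the glycolytic trunk were measured in a list of 23 genes of the pentose phosphate pathway, gluconeogenesis and glycogen metabolism, of which 20 were tested, 2 were called higher and 9 lower in ASO-L1 cells, where 18.0% and 15.7% of all tested genes were, with a median log2 fold change of -0.25. The 4 called with the smallest p were G6PC3 (-0.49 ± 0.07), the ubiquitous glucose-6-phosphatase, RPIA (0.55 ± 0.09), the ribose-5-phosphate isomerase, C12orf5 (-0.53 ± 0.09), which codes for TIGAR, a fructose-2,6-bisphosphatase, and GBE1 (-0.52 ± 0.09), the glycogen branching enzyme. Chosen after their values were seen, the other called glycogen genes were UGP2 (-0.72 ± 0.16), which makes UDP-glucose, GYS1 (-0.44 ± 0.10), a glycogen synthase, and the phosphorylases PYGB (-0.42 ± 0.08) and PYGL (-0.21 ± 0.07), all lower.

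Among 20 genes of lactate transport and pyruvate oxidation, 19 were tested. Of these, 2 were called higher and 2 lower, where 18.0% and 15.7% of all tested genes were. The number of calls is thus not in itself a result about this list. LDHD, the mitochondrial D-lactate dehydrogenase, averaged 30.6 CPM in ASO-L1 cells and 61.7 CPM in SO-L1 cells, a log2 fold change of -1.01 ± 0.10 (edgeR adjusted p = 0.00104). PDP1 (0.66 ± 0.12), the phosphatase that reactivates pyruvate dehydrogenase, and MPC1 (0.63 ± 0.14), a subunit of the mitochondrial pyruvate carrier, were higher, and PC (-0.42 ± 0.12), pyruvate carboxylase, was lower.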
